A study of Danio rerio with 6 samples.

Results

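Whole zebrafish embryos raised in 1.5% ethanol were compared with control embryos raised in plain system water, on 2 microRNA (miRNA) arrays per group. The treated dishes held ethanol from 4 h after fertilisation, the blastula stage, until collection at 24 h, and the controls were collected at the same age. Embryos were kept in dishes of 200, the design text calls the arrays of a group biological replicates, and neither it nor the labels give a strain, a genotype or the number of embryos per RNA sample. Each array was hybridised with Cy3-labelled total RNA of one sample. A further pair of arrays, from embryos in 1% ethanol, entered the joint normalisation and helped the model to estimate the spread.

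The members were the 243 probes named for zebrafish miRNAs, each printed as 4 spots. Of these, 218 carry registered zebrafish names and 25 carry names that begin ZF_miR, a prefix that the labels do not explain. Empty and blank spots set a limit on each array, their 95th percentile, and a probe counted as above them there if no fewer of its kept spots were over that limit than under it. In all, 46 of 243 probes were above the empty spots on at least 2 of the 4 arrays and were set apart from the other 197. Of the 46, 31 were above on all 4 arrays, 9 on 3 and 6 on 2, and of the 197, 33 were above on 1 array and 164 on none.

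MiRNAs are short RNAs cut from hairpin precursors. They guide Argonaute proteins to mRNAs with sites for the miRNA's seed in the 3′ untranslated region, which lowers translation and stability of those mRNAs. In the zebrafish embryo the miR-430 family clears maternal mRNA after the genome is switched on, and tissue-specific miRNAs follow as organs form. Ethanol is a teratogen that disturbs the brain, eyes, craniofacial skeleton and heart of exposed embryos.

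Most spots were dim: a zebrafish spot had a median raw intensity of 184.5 and 169 units on the 1.5% ethanol arrays, against 226 and 166 on the control arrays. For spots without a miRNA probe the medians were 112 and 98 at 1.5% ethanol, against 127 and 101 in control. The limit set by the empty spots was 391.6 and 255.7 units at 1.5% ethanol, against 451.1 and 276.5 in control. Of the 243 probes, 56 and 49 passed it at 1.5% ethanol and 49 and 42 in control. Levels below are normalised log2 intensities, in which a difference of 1 is a 2-fold difference. Names in the file headers place the first 1.5% ethanol array and the second control array on 1 slide, and the other arrays on other slides. For the second 1.5% ethanol array the slide was read from the experiment name alone, since its header names no image. Across the 46 probes the replicates correlated at r = 0.945 at 1.5% ethanol and 0.921 in control, while pairs of 1 array from each group gave 0.867 to 0.961, a range that takes in both replicate pairs.

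Signal over the limit is no proof of the named miRNA. Of 182 probes that carry worm or insect names and no other, 28 (15.38%) were above the empty spots on 2 or more of these 4 arrays, beside 18.93% of the zebrafish probes. For 20 of the 46 zebrafish probes the array held another probe with the same miRNA name but another species, and in 17 of them no such probe was above the empty spots on 2 or more arrays. The same-named probes of miR-9, miR-23a and miR-21 were above on 0 of 4 arrays, while human miR-192, mouse miR-202 and human miR-375 were above on all 4, and mouse miR-192 and human miR-202 on 0. Whether probes of 1 name share their sequence, or an arm of the hairpin, was not checked, and no probe sequence was used here.

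The spot area found by the quantification software was not used by the rule but comes from the same scans and spots, so it describes the 46 and is no separate support. The median spot of the 46 probes covered 12900 and 11720 square microns on the 1.5% ethanol arrays, and 13920 and 12980 on the control arrays. For the other 197 it covered 100 and 100 at 1.5% ethanol, and 150 and 100 in control. An area of 200 square microns or less was found for 1 and 4 of the 46 at 1.5% ethanol and for 1 and 3 in control, and for 123 and 145 of the 197 at 1.5% ethanol and 109 and 149 in control.

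The main question was which miRNAs differed in level after 1.5% ethanol. No miRNA passed the threshold: 0 of 243 had a limma adjusted p under 0.05 (0% of 243, lowest adjusted p = 0.38), with 0 higher and 0 lower. In whole embryos, fewer cells of a type and less RNA per cell cannot be told apart. Before adjustment, 12 probes had a p under 0.05 (4.94% of 243), 4 of them higher (1.65%) and 8 lower (3.29%), and miR-128 was the 1 among the 46. The model, fitted to all 6 arrays, had a median standard error (SE) of 0.21 for a log2 fold change over the 243 probes. Among the 46 the median SE was 0.26. With 2 arrays a group the smallest two-sided exact permutation p is 0.333, so tests of single miRNAs rest on the model.

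Intervals are on the scale with the offset, which narrows differences of dim probes. For 28 of the 46 the 95% interval of the log2 fold change, taken for each probe alone, lay inside a 2-fold change either way, and for 7 inside 1.5-fold. Over all 243 probes the shares were 81.5% and 30.9%, but 170 of the 198 probes inside 2-fold were among the 197, where values near the empty spots put no limit on a miRNA's change. Among the 46, the median log2 fold change was -0.02, beside 0.01 for all 243, and 21 values were above 0 and 25 below. Counts over the 46 are a description, since the same arrays chose them.

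MiR-128, a miRNA enriched in the brain, had the smallest p of all probes. Its level was 8.07 and 7.65 on the 1.5% ethanol arrays, against 8.92 and 8.79 on the control arrays. Both treated arrays lay below both controls, and the log2 fold change of -0.99 did not pass (SE 0.20, 95% interval -1.48 to -0.50, limma adjusted p = 0.38). The raw spots read 97, 241, 527 and 551 on the first 1.5% ethanol array and 154 to 277 on the second, against 559 to 690 and 362 to 414 on the control arrays. The first treated array thus held spots near background and spots close to the control level, and the second was not above the empty spots, so the size is not fixed. Within the shared slide the difference was -0.71.

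No other miRNA of the nervous system passed either. MiR-9, a regulator of neural progenitors, was at 13.23 and 13.01 at 1.5% ethanol, against 13.12 and 13.28 in control, a log2 fold change of -0.08 (95% interval -0.50 to 0.34). Its interval lies inside a 2-fold change. MiR-132, which neuronal activity induces in mammals, was at 13.26 and 13.27 at 1.5% ethanol, against 13.54 and 13.66 in control. The normalised levels did not overlap, and the 4 spots agreed closely on each array. Raw spots read 8575 to 9948 and 11531 to 12221 units at 1.5% ethanol, and 13468 to 15182 and 12002 to 13388 in control. The raw ranges of the second arrays of the groups thus overlapped. The log2 fold change was -0.33 (95% interval -0.75 to 0.09, limma adjusted p = 0.964). Scaled to the Ncode_Control spots it was -0.03, and in the authors' deposited log2 values 0.04. Relative to the median of all probes these were -0.23 and -0.28.

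MiR-218a, found in motor neurons, was saturated in all spots of both control arrays and of the first 1.5% ethanol array. On the second 1.5% ethanol array its spots read 59829 to 63531 units, just under saturation. No fold is given for it. In the miR-153 family, linked to synaptic vesicle release in zebrafish, miR-153c was at 9.46 and 9.68 at 1.5% ethanol, against 9.74 and 9.56 in control. MiR-153a was at 10.14 and 8.99, against 9.67 and 8.13, so that in both groups replicate 1 exceeded replicate 2 by more than the groups differed. The brain-enriched miR-124 was above the empty spots on 1 of the 4 arrays and miR-153b on none. Of the 19 probes in the neural list, 6 were among the 46 and 0 passed the threshold. The median log2 fold change of the list is not given, since it is the value of the saturated miR-218a.

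In the miR-430 family, which acts on maternal mRNA, miR-430j was at 10.73 and 10.62 at 1.5% ethanol, against 10.80 and 10.99 in control, and the arrays did not overlap (-0.22, 95% interval -0.64 to 0.20, limma adjusted p = 0.964). MiR-430b was at 10.21 and 9.95, against 10.23 and 10.06 (-0.06). The other 3 family probes, miR-430a, miR-430c and miR-430i, were not among the 46, and 0 of 5 passed.

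The let-7 family, which times developmental transitions, had 3 of 10 probes among the 46, and 0 of 10 passed. Let-7e was at 11.65 and 12.44 at 1.5% ethanol, against 10.49 and 11.93 in control, a log2 fold change of 0.84 (limma adjusted p = 0.964). This value rests on 1 spot: on the first control array the spots read 199, 5926 and 5984. With the median over spots the log2 fold change of let-7e was 0.09, and without control replicate 1 it was 0.12. Let-7b was at 9.51 and 10.63 at 1.5% ethanol, against 10.52 and 10.74 in control (-0.56), and let-7c at 9.004 and 7.87, against 8.46 and 8.79 (-0.18). Without 1.5% ethanol replicate 1 the log2 fold change of let-7b was 0.0003, and without 1.5% ethanol replicate 2 it was -1.12. In let-7c the treated arrays lay on either side of both controls.

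Among muscle miRNAs, miR-1, the skeletal and heart muscle miRNA, was at 9.16 and 8.81 at 1.5% ethanol, against 8.98 and 9.04 in control, a log2 fold change of -0.03 (95% interval -0.47 to 0.41). Its muscle partners miR-133a and miR-206 were above the empty spots on none of the 4 arrays. Of the 8 muscle and heart probes, miR-1 included, 3 were above on at least 1 treated array and 1 on at least 1 control array. Over all 243 probes these counts were 69 and 55, and the difference was not tested. MiR-203a, which promotes epidermal differentiation, was at 14.03 and 14.22 at 1.5% ethanol, against 14.43 and 13.38 in control. The control arrays differed by more than 1 log2 unit, and the 95% interval of the log2 fold change ran from -1.87 to 2.31. The 1% ethanol arrays, which share in that interval, differed too, with miR-203a spots of 14111 to 14961 units on the first and of 303, 389, 14288 and 14411 on the second. Of the 8 muscle and heart probes and the 9 epidermal and epithelial probes, 1 in each list was among the 46 and 0 passed.

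In clusters that act in growth and patterning, miR-23a was at 14.12 and 14.54 at 1.5% ethanol, against 14.42 and 14.35 in control (-0.06). MiR-19a, of the miR-17-92 clusters that favour cell proliferation, was at 12.07 and 12.67, against 12.23 and 12.54 (-0.01). MiR-92b was at 10.61 and 10.98, against 11.18 and 11.21 (-0.40), with no overlap. On the first 1.5% ethanol array 1 of its spots read 270 beside a highest of 3336. With ignored spots kept the log2 fold change of miR-92b was 0.36. The groups overlapped for miR-23a and miR-19a, and for both the gap between treated replicates exceeded the gap between group means. MiR-196b, a Hox cluster miRNA, was at 9.96 and 10.45 at 1.5% ethanol, against 10.46 and 10.35 in control (-0.20). Of 20 miR-17-92 probes 5 were among the 46, of 9 probes of the miR-23a cluster family 2, and of 8 Hox cluster probes 3, and 0 passed in each list.

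Among miRNAs of immune cells, miR-146b was at 11.80 and 11.74 at 1.5% ethanol, against 11.79 and 12.22 in control (-0.24), and miR-155 at 9.52 and 9.65, against 9.75 and 9.61 (-0.09). MiR-181a, abundant in lymphocytes of mammals, had the narrowest interval of the 46. MiR-181a was at 8.33 and 8.29 at 1.5% ethanol, against 8.56 and 8.52 in control, with no overlap (-0.23, 95% interval -0.59 to 0.14). MiR-16c, of a family that restrains the cell cycle, was at 8.998 and 9.01 at 1.5% ethanol, against 8.99 and 8.80 in control, also with no overlap (0.11). MiR-21, which rodent work links to ethanol exposure, was at 11.16 and 10.90, against 10.89 and 10.85 (0.16, 95% interval -0.25 to 0.56). In the list of 17 ethanol-responsive probes from rodent work, 7 were among the 46, 0 passed, and the median log2 fold change was 0.00, beside 0.01 for all probes.

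The largest log2 fold changes belonged to ZF_miR_20 and miR-736, whose roles are not described here, as for the other miRNAs first named in fish. MiR-736 was at 12.38 and 12.73 at 1.5% ethanol, against 12.16 and 8.78 in control. Its spots read 5990 to 6963 and 6806 to 6886 units on the treated arrays, 6215 to 7417 on the first control array and 338 to 478 on the second. The log2 fold change was 2.08, with an SE of 1.07 (limma adjusted p = 0.964), and a single control array decided its size: without control replicate 2 it was 0.39, and without control replicate 1 it was 3.77. The probe ZF_miR_20 was at 12.22 and 10.60 at 1.5% ethanol, against 9.59 and 8.94 in control, and its estimate of 2.15 had an SE of 1.33 (limma adjusted p = 0.964). The 1% ethanol arrays, with spots of 90 to 115 and 1797 to 2363 units, entered that SE: without either of them it was 0.54 (adjusted p = 0.577), and on the 4 compared arrays alone it was 0.55 (adjusted p = 0.608). On the first control array the spots of ZF_miR_20 split into 145 and 237 beside 5398 and 5732, and on the second they read 115, 891 and 898. On the treated arrays they read 5434 to 6054 and 1251 to 1683 units. With the median over spots the log2 fold change of ZF_miR_20 was 1.56, and with slide as a block 1.09. The median for the first control array still lay between its low and its high spots. MiR-736 and ZF_miR_20 were the only probes whose log2 fold change was over 1 in size (0.823% of 243), and neither passed. Scaled to the Ncode_Control spots both did, with log2 fold changes of 2.40 for miR-736 and 2.47 for ZF_miR_20 (adjusted p = 9.5e-05 and 9.0e-05), in a fit that gave every probe the same SE of 0.48.

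MiR-726 was at 12.64 and 11.23 at 1.5% ethanol, against 12.53 and 10.15 in control. Its spots agreed within arrays, with 6685 to 7906 and 1967 to 2190 units at 1.5% ethanol, and 7473 to 8788 and 944 to 1023 in control. The median raw spot of replicate 1 was 3.58 times that of replicate 2 at 1.5% ethanol and 8.40 times in control, so replicate arrays differed by more than the groups. Without control replicate 2 the log2 fold change of 0.59 became -0.60, and without control replicate 1 it became 1.78. MiR-22a gave ratios of 3.32 at 1.5% ethanol and 3.05 in control, miR-153a 2.56 and 4.11, and miR-100 2.27 and 2.58. Slide was also entered as a block, which left 1 residual degree of freedom. The second 1.5% ethanol array and the first 1% ethanol array were placed by their experiment names alone. In that fit miR-726 (1.57, limma adjusted p = 0.0433) and miR-736 (2.09, limma adjusted p = 0.000621) passed, again with 1 SE, 0.43, for every probe. Limited to the 46 probes neither passed with that block (adjusted p = 0.27 and 0.0852).

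MiR-724 was at 8.35 and 8.86 at 1.5% ethanol, against 9.08 and 9.42 in control, with no overlap (-0.65, 95% interval -1.30 to 0.00, limma adjusted p = 0.941). Its raw spots read 321 to 406 and 394 to 452 units at 1.5% ethanol, against 648 to 728 and 556 to 641 in control. Raw units are not normalised between arrays, and the spots of an array repeat 1 sample. These readings thus add no support beyond the 2 arrays per group. MiR-737 was at 9.57 and 10.82, against 10.64 and 11.04 (-0.65), with 1 spot of 200 beside a highest of 1738 on the first 1.5% ethanol array. MiR-30e, of a family that targets the Hedgehog receptor component smoothened in zebrafish, was at 10.64 and 11.60, against 11.76 and 11.60 (-0.56). It likewise held 1 low spot, at 203 beside 3521 to 4036 units, on the first 1.5% ethanol array, and its log2 fold change was -0.07 with the median over spots and 0.35 with ignored spots kept.

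None of the remaining members passed. MiR-193b was at 13.78 and 13.34 at 1.5% ethanol, against 13.96 and 12.92 in control (0.12), and its spots on the second control array, at 6589 to 7045 units, lay below those of the other 3 arrays. MiR-202, enriched in the gonads of fish, was at 10.52 and 9.68, against 10.23 and 9.83 (0.07), and miR-34c, of the p53-induced miR-34 family, at 8.95 and 9.92, against 9.74 and 9.54 (-0.20). The groups overlapped in all 3. MiR-100 had a log2 fold change of 0.36, miR-22a 0.06, miR-27c* 0.07, miR-18b* 0.38, miR-18a -0.02, miR-92a -0.27, miR-220 0.05, miR-461 0.13, miR-31 0.12, miR-10a* 0.14 and miR-196a 0.04. On the first control array the lowest spot of miR-18b* read 255 beside a highest of 1301. With the median over spots the log2 fold change of miR-18b* was 0.02.

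Spots that disagreed within an array, as for let-7e and miR-30e, lay under several of the larger fold changes. In the 184 pairs of a probe and an array among the 46 probes, the highest kept spot was a median of 1.19 times the lowest, and in 13 pairs, from 10 probes, it was over 4 times. Of these pairs 6 were on 1.5% ethanol arrays and 7 on control arrays. The 10 probes were ZF_miR_20, miR-128, let-7c, let-7e, miR-18b*, miR-30e, miR-92b, miR-196a, miR-199* and miR-737. Such ratios compare raw spots within 1 array and do not measure the spread between arrays. The median gap between the replicates of the 46 probes was 0.42 at 1.5% ethanol and 0.28 in control, beside a median gap of 0.19 between the group means. For 8 of the 46 (17.39%) the gap between group means exceeded both replicate gaps, beside 18.11% of all 243.

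Arrays without overlap between the groups were as common among the 46 as in the whole set, at 13 of 46 beside 28.8% of 243. Among the 46, 5 probes had both 1.5% ethanol arrays above both controls, beside 28 of 243 (11.5%), and 8 had both below, beside 42 of 243 (17.3%). The 5 were miR-736, ZF_miR_20, miR-21, miR-16c and miR-10a*, and the 8 were miR-128, miR-132, miR-30e, miR-92b, miR-430j, miR-724, miR-181a and miR-192. No margin was required, and for miR-30e, miR-21 and miR-16c the nearest arrays of the groups were almost level. None passed the threshold.

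Of all 243 probes, 69 were above the empty spots on 1 or both 1.5% ethanol arrays, and 55 on 1 or both control arrays. Those above on both arrays of a group numbered 36 at 1.5% ethanol and 36 in control, with 31 on all 4. These calls chose the 46, so the counts are a description, and a difference in detection was not tested. MiR-210*, the partner strand of the hypoxia miRNA miR-210, was the 1 probe above on both 1.5% ethanol arrays and neither control array, and no probe showed the converse. On the second 1.5% ethanol array its call was a tie, with spots of 297 and 310 units over the limit of 255.7 and spots of 122 and 165 under it. The levels of miR-210* still overlapped, at 7.80 and 7.68 at 1.5% ethanol, against 7.11 and 7.80 in control. At the edge of the rule, the other 5 probes above on exactly 2 arrays were miR-10a*, miR-196a, miR-31, miR-375 and miR-92a, each on 1 array per group. Of the 33 probes just outside, 23 were above on 1 treated array and 10 on 1 control array.

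Among the 197 remaining probes no miRNA passed either, and most values lie near background, so sizes are not fixed. ZF_miR_9 was at 8.11 and 8.19 at 1.5% ethanol, against 7.47 and 7.28 in control (0.77, limma adjusted p = 0.38), and was above the empty spots on 1 treated array and no control array. The next named higher probes were miR-30d (0.43), miR-183 (0.53), miR-10d* (0.42) and miR-732 (0.35). The named lower ones were miR-146a (-0.72), miR-140 (-0.64), miR-214 (-0.55), miR-200b (-0.50) and miR-499 (-0.46), on the log2 scale, all with adjusted p from 0.932 to 0.964. Of these 9, miR-146a was above the empty spots on 1 control array, miR-732 on 1 of the 4 arrays and the other 7 on none.

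Lists with few or no probes among the 46 could hardly show a difference. The numbers were 0 of 4 for endothelium, 0 of 5 for sensory cells, 1 of 7 for cartilage and mesenchyme, and 2 of 8 for gut, liver and pancreas. In cartilage and mesenchyme 6 of 7 log2 fold changes were below 0, with a median of -0.16, beside 119 of 243 and a median of 0.01 for all probes, and 6 of the 7 probes were outside the 46. The pair in the gut, liver and pancreas list was miR-192, at 7.69 and 8.23 at 1.5% ethanol, against 8.38 and 8.34 in control (-0.40), and the islet miRNA miR-375, at 8.36 and 7.88, against 8.34 and 7.89 (0.01). MiR-199*, the mesenchymal member above the empty spots, had a log2 fold change of -0.02. In the blood and immune list 2 of 10 probes were among the 46, in the p53 and cell cycle list 2 of 10, in the miR-30 family 1 of 6 and in the miR-100 cluster families 1 of 5. Of 21 fish-named probes 4 were among the 46, with a median log2 fold change of 0.13 and 14 values above 0, beside 124 of all 243, and of 25 ZF_miR probes 1, with a median of 0.03. No list held a miRNA past the threshold.

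The 1% ethanol arrays were set against the same control arrays, so the doses are not independent. MiR-128 was above the empty spots on neither 1% ethanol array, with spots of 92 to 156 and 102 to 156 units, and passed the threshold there (limma adjusted p = 0.0152) with a size that is not fixed. MiR-736 had spots of 96 to 207 and 282 to 506 units at 1% ethanol. For miR-193b they read 288 to 419 on the first 1% ethanol array, and 831 and 8428 on the second.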

How the data were processed

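MiRNA was measured on 6 one-colour arrays, 2 for each of 3 groups, of which the 1.5% ethanol and control arrays are compared here. The deposited scanner files give, per the file headers, the raw foreground and background intensity of each of 5040 spots, without background subtraction. The authors' deposited table holds log2 values, and 1438 of 1440 came out within 0.001 when a probe's mean log2 foreground, over kept spots of at least 100 units, was set against that of the Ncode_Control spots. It served as an alternative. Spot area and the ignore mark (other values) were taken as deposited.

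Background was corrected by normexp (offset 50). Spots that the software marked to be ignored, 4.64% to 11.7% per array, were then dropped, log2 values of all miRNA spots were quantile normalised across 6 arrays, and a probe's kept spots were averaged. Saturation was taken as 65000 units or more. A linear model with 3 group means was fitted with limma 3.58.1 in R 4.3.3 (3 residual degrees of freedom, prior of 3.15), with two-sided moderated tests and Benjamini-Hochberg adjustment over 243 probes at a threshold of 0.05. The model was tested on simulated data. P-values set the group difference against the spread between replicate arrays, estimated from all 6 arrays and a prior over the 243 probes. The number of arrays limits the precision.

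Named probes followed a rule: among the 46, the 10 highest in level, the 10 smallest p and 5 largest fold changes in each direction; among the rest, the 5 smallest p in each direction; the 3 highest members of each list; and the miR-128, miR-9, miR-153, miR-21, miR-430, let-7, miR-1, miR-133, miR-206, miR-203, miR-124, miR-736 and miR-193 probes. This gave 87 probes, and the other probes were summarised as counts. Not all of the 87 appear in the text: many of those outside the 46 are covered only by the counts of their lists. The remaining members of the 46 are given so that each has a value. The members, lists and rule were chosen with earlier results of these data known. Single spots, replicate ratios and the probes of other species were chosen for description after their values were seen. Alternatives covered the background correction, normalisation, spot summary, ignored spots, arrays and probes in the fit, blocks and the limit for empty spots.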

Additional observations from a re-analysis of the deposited data

Results flagged for a closer look

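Among the 835 probes named for other species, which entered no comparison, 3 were above the empty spots on both 1.5% ethanol arrays and on neither control array, and 0 showed the converse. Of the 243 zebrafish probes the counts were 1 and 0. The 3 are given because they lie in data outside the comparison. Their calls on these arrays chose them, so their levels are a description and no separate support. The mouse-named let-7d* was at 7.94 and 8.02 at 1.5% ethanol, against 7.15 and 7.28 in control, and miR-433-3p at 8.11 and 8.28, against 7.33 and 6.99. The third, mouse-named miR-692, was at 8.32 and 8.18, against 8.32 and 8.24, so its levels did not differ in the same way as its calls. None of the differences was tested.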

How the results depend on the processing

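Of 23 alternatives, 21 gave 0 calls and 2 gave 2 calls each: the Ncode_Control scaling (miR-736 and ZF_miR_20) and slide as a block (miR-726 and miR-736). The fit without each array in turn gave 0 to 0 calls, with a lowest adjusted p of 0.444 to 0.724, and in the authors' deposited log2 values 0 of 226 probes passed. The cause of the 2 exceptions was not tested. Replicate numbers were tried as a block, which gave 0 calls; the replicate 1 minus 2 differences of both groups correlated at 0.265 over 243 probes and 0.429 over the 46, beside -0.03 and -0.04 over 243 for the pairs with 1% ethanol, and the labels do not say that a number marks a shared dish or day. With 2 alternatives added after seeing the data, the 46 probes with slide or replicate number as a block, there were also 0. The count of 46 probes became 28 with the 99th percentile as the limit, and 41 to 46 under the other limits. Of the 87 probes that the naming rule gave, including those not shown in the text, 22 kept their sign in every alternative run. For miR-128 the log2 fold change ran from -1.20 to -0.39. The value of -0.39 came from the authors' deposited log2 values, where the median of all probes was 0.32, and relative to the median of all probes the range was -1.18 to -0.70. Leaving out the normalisation moved the median of all probes to -0.14 and the Ncode_Control scaling to 0.21. Near background and at saturation, sizes are not fixed.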

Other observations

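By name, 36 of the 46 probes matched miRNA genes of the RefSeq annotation of zebrafish (GRCz12tu). MiR-9 matched 6 genes, miR-181a 5 and miR-128 and miR-23a 3 each, so the array sums over genes that share a mature miRNA and cannot tell which was transcribed. Probes whose genes neighbour each other within 10000 bases were miR-23a with miR-27c*, whose log2 fold changes at 1.5% ethanol were -0.06 and 0.07, miR-18a with miR-92a (-0.02 and -0.27), and miR-18b* with miR-92a (0.38 and -0.27). The value of 0.38 for miR-18b* became 0.02 with the median over spots.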
